A study of Mus musculus with 3 samples.

Results

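The replication-dependent histone genes were examined in skin-resident macrophages of the mouse at 3 time points of the hair follicle resting phase, telogen. Members were all genes with a name that starts with Hist1h, Hist2h, Hist3h, or Hist4h, found through the RefSeq transcript that the array design gives for each probe. RefSeq now holds these names only as synonyms of 70 genes, of which 47 were named by at least 1 probe, out of 19752 genes named on the array. The members comprised 6 H1, 14 H2A, 11 H2B, 8 H3, and 8 H4 genes, and 23 genes of the family were not analysed here. The macrophages were CD11b+Gr1-F4/80+ cells sorted from the backskin of CD1 mice at postnatal days 42 (P42), 55 (P55), and 69 (P69), with RNA of 3 littermates pooled at each age. No group was treated or carried a transgene. Total RNA, of which little was available, was subjected to whole transcriptome amplification and Cy3 labeling, and each age was hybridized to 1 Agilent array. With 1 array per age there was no replicate check, and the ages could not be compared by a test.

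Replication-dependent histone genes encode the linker histone H1 and the core histones H2A, H2B, H3, and H4, which package newly made DNA. Their mRNAs are made mainly in S phase, lack introns, and end in a stem-loop in place of a poly(A) tail. The stem-loop is bound by SLBP, and transcription depends on NPAT, which is activated by cyclin E and CDK2. Tissue-resident macrophages divide slowly as a rule, and histone transcripts are commonly used as a marker of cells in S phase.

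Signals are given as levels, the log2 of the background-corrected intensity relative to the 75th percentile of all probes on the same array, and changes are differences of these levels. A signal counted as detected when the scanner software called it well above background. Where only 1 of the arrays compared had a detected signal, the change is a bound ("at least") against the lowest detected signal of the dim array, or against the dim probe's own signal if that was higher. Spots repeated on an array gave a difference between the P55 and P42 arrays a technical SD of 0.166 (log2), and a difference between the P69 and P42 arrays an SD of 0.174. This error leaves out the variation between mice, sorts, and amplifications, and each histone probe had 1 spot per array. All 15 macrophage markers on the array were detected at each age, including Adgre1, which encodes F4/80, at levels between 4.83 and 5.51. The processed log2 table that the authors also deposited holds the P55 and P69 arrays under each other's name. Its P69 column matched the scanner file of P55 over 36390 probes, with a residual SD of 0.00571 and 99.8% of probes within 0.05 of the median offset. Arrays are named here as the scanner files are assigned to the samples, and by the table the array called P55 below would be P69, and vice versa.

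To show what lies upstream of the genes that the comparison of the P55 and P42 arrays turned on, the 150 bases before the annotated start are printed for the member of each class with the largest increase among those that were detected on all 3 arrays and have a promoter sequence (for H2B, the 2 largest). Hist1h3f, which has none, is therefore not shown. Hist1h2be, the member with the lowest value in that comparison among those detected on all 3 arrays, is shown with both of its annotated starts. The sequences are from RefSeq (GRCm38.p6), 5′ to 3′ on the gene's strand. Capitals mark matches, on either strand, to TATAAA (the TATA box), CCAAT (the CCAAT box), ATTTGCAT (the octamer bound by OCT1), AAACACA (the H1 box), and the E2F-type motifs TTTGGCGC and TTTCGCGC. Each motif was searched by itself, so that overlapping matches would count for both.
Hist1h1a, chr13:23763518-23763667, plus strand: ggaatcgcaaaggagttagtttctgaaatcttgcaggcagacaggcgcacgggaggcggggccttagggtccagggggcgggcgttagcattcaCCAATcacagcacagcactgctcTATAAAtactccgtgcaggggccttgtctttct
Hist1h2ab, chr13:23750938-23751087, plus strand: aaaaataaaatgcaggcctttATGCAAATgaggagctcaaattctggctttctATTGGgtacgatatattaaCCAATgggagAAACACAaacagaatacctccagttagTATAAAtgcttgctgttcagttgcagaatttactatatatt
Hist3h2ba, chr11:58948761-58948910, plus strand: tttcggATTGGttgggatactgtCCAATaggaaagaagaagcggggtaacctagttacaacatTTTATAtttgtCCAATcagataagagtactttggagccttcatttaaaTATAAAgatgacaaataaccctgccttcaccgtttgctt
Hist1h2bb, chr13:23746584-23746733, plus strand: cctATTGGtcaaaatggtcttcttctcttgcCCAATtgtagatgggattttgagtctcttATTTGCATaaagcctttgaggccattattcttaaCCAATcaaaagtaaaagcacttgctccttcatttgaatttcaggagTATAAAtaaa
Hist2h3c1, chr3:96246535-96246684, plus strand: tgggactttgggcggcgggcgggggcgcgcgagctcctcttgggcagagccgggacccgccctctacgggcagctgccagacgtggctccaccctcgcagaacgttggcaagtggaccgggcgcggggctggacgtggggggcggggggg
Hist1h4h, chr13:23530894-23531043, plus strand: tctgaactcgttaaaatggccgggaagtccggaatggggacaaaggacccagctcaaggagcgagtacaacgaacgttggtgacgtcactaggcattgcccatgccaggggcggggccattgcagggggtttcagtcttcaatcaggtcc
Hist1h2be, chr13:23585971-23586120, minus strand: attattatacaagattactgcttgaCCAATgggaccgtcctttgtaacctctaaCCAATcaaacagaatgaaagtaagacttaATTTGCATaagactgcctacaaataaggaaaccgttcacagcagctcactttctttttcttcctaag
Hist1h2be, chr13:23621095-23621244, minus strand: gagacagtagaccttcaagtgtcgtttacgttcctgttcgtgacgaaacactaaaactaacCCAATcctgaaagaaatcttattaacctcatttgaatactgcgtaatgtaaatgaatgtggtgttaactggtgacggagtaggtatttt

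In the 250 bases before the start, 35 of the 42 members with a promoter sequence (83.3%) held CCAAT, compared with 33.8% of the 32851 promoters of all genes. TATAAA was found in 21 members (50%, compared with 12.4% of all promoters). The octamer was found in 7 of 14 H2A and 6 of 9 H2B genes and in none of the H1, H3, and H4 genes, compared with 1.60% of all promoters. AAACACA was found in 5 of 6 H1 genes and in 9 members overall (21.4%, compared with 6.25% of all promoters). TTTCGCGC was found in 4 members (9.52%, compared with 0.256%), and TTTGGCGC in 0 members (compared with 0.417%). Windows of neighboring genes on opposite strands overlap, so that some matches are counted for both genes. Hist1h2an and Hist1h2bp share 1 TTTCGCGC match, and also TATAAA and CCAAT matches. The octamer of Hist1h2bg is also that of Hist1h2ae, and the octamer of Hist1h2ba is also that of Hist1h2aa. In the printed stretches, each of the H1, H2A, and H2B genes holds at least 1 match, whereas those of Hist2h3c1 and Hist1h4h hold 0. A match is a description of the letters only. Hist1h2bc, Hist1h3a, Hist1h3f, Hist2h2be, and Hist2h4 have no sequence here.

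Histone transcripts were readily measured in the sorted macrophages. Of the 47 members, 44 were detected on the P42 array (93.6%, compared with 77.7% of all named genes), 43 on the P55 array (91.5%, compared with 70.5%), and 43 on the P69 array (91.5%, compared with 77.0%). In total, 42 members were detected on all 3 arrays, Hist1h2ae, Hist1h2bp, and Hist1h2bq on some of them, and Hist1h1d and Hist1h2ac on none. The plot of levels by class shows most members highest on the P55 array.

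**Figure D1:**
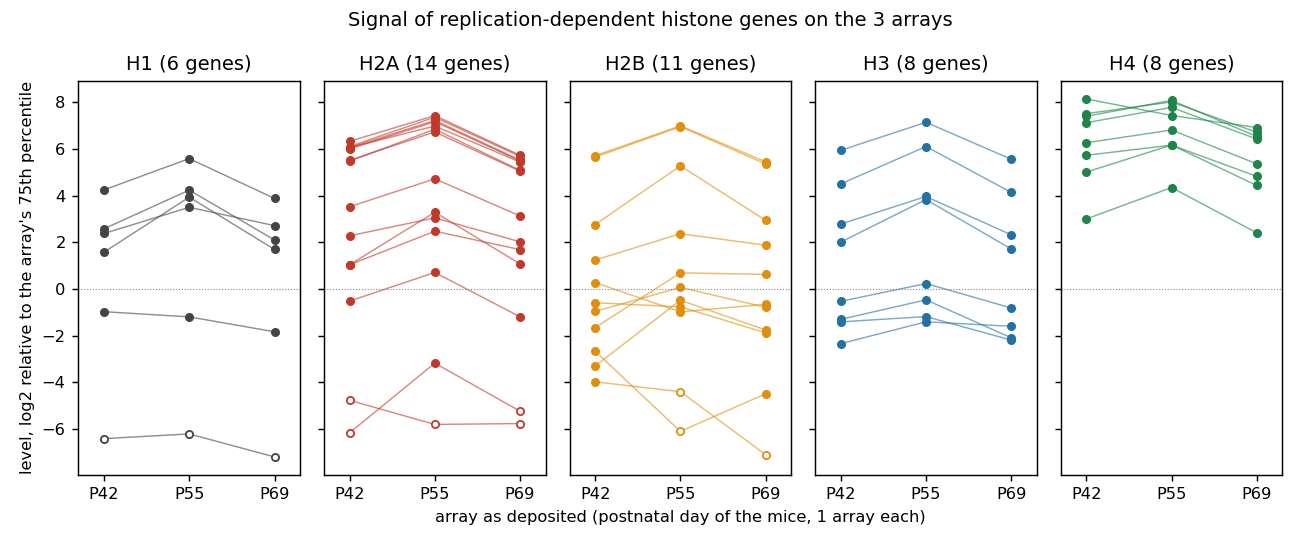
Level of each histone gene (log2 relative to the 75th percentile of the array, y axis) on the P42, P55, and P69 arrays (x axis), in 1 panel per histone class. Each line is 1 gene and open circles are signals not well above background. Levels spanned from -7.19 to 8.14, and the lines peak at P55 in most genes.

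As a group, histone genes were higher on the P55 array than on the P42 array. Of the 45 members with a value, 28 were at least 2-fold higher, compared with 29.1% of all named genes, and 2 were at least 2-fold lower, compared with 16.9% of all genes. The median change of all 47 members, without a filter on dim signals, was 1.16 (2.23-fold), with quartiles of 0.60 and 1.34, compared with a median of 0.21 over all genes. The number past 2-fold depended on the scaling. When the 75th percentile was taken over probes detected on all arrays, the all-gene median was -0.16 and the histone median was 0.79. Under that scaling 9 of the 45 members were at least 2-fold higher, near the share of all genes (19.3%). Relative to the median of all genes, histone genes were higher by 0.95 under both scalings. Subtracting 1 constant per array cannot change such a difference, so that here and below only quantile normalization and normexp could move it. It was 0.69 with quantile normalization and 1.17 with normexp, the lowest and highest of the 6 scalings and background corrections tried. Of the 45 members, 38 were higher and 4 lower under each of these settings, whereas the direction of Hist1h1t, Hist1h3g, and Hist2h2be differed between settings. No member reached a 10-fold change. In the log2 table, which holds 44 of the members, the difference stands between the P69 and P42 columns. There 28 members were at least 2-fold higher, compared with 40.4% of all genes, and the median change was 1.17. In bulk samples such as these, more cells that express a gene and more RNA per cell cannot be told apart.

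On the P69 array histone genes were not higher as a group than other genes, compared with the P42 array. Of the 44 members with a value, 2 were at least 2-fold higher, compared with 22.2% of all genes, and 4 were at least 2-fold lower, compared with 20.7%. The median change was -0.47 (all genes, -0.08), but it ranged from -0.67 to 0.70 over the 6 settings, and 34 of the 44 members changed direction between settings. Relative to the median of all genes, histone genes were lower by 0.39 in the main scaling, and this difference was -0.07 with normexp background correction. The 6 members higher under every setting were Hist1h1c, Hist1h2bc, Hist1h2bg, Hist1h3i, Hist3h2a, and Hist3h2ba, and the 4 lower ones were Hist1h2bp, Hist1h2bq, Hist1h4i, and Hist2h2be. This comparison and the previous one share the P42 array.

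When the later arrays were compared with each other, 0 of 43 members were at least 2-fold higher on the P69 array, compared with 7.85% of all genes, and 34 were at least 2-fold lower, compared with 11.3%. The median change was -1.55 (2.92-fold lower), compared with -0.27 over all genes. With quantile normalization the number at least 2-fold lower was 21, compared with 7.85% of all genes. Without scaling, where the all-gene median was 0.63, it was 8, compared with 1.81%. Relative to the median of all genes, histone genes were lower by 1.28 in the main scaling. This difference was -0.96 with quantile normalization and -1.01 with normexp background correction. The plot of the distributions shows the histone genes as a narrow peak apart from the middle of all genes in the comparisons that involve the P55 array.

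**Figure D2:**
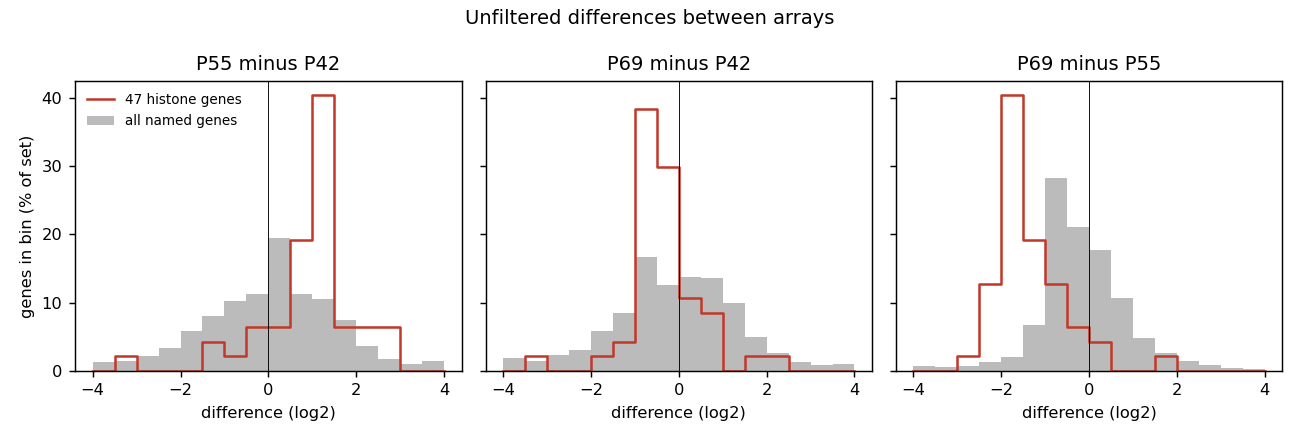
Share of genes (% of each set, y axis) per bin of 0.5 of the unfiltered difference between arrays (log2, x axis) for all named genes (gray bars) and the 47 histone genes (red line). Values beyond 4 are in the outer bins. Between the P55 and P42 arrays the histone median was 1.16 and that of all genes 0.21.

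Among the linker histones, 4 of the 5 detected H1 genes were at least 2-fold higher on the P55 array than on the P42 array. Over all genes this share was 29.1%. Hist1h1a was at 1.58 on the P42 array, 3.94 on the P55 array, and 1.70 on the P69 array, a 5.13-fold difference between P55 and P42. Hist1h1e was at 2.58, 4.24, and 2.10. Hist1h1b was at 4.24, 5.59, and 3.88. Hist1h1b and Hist1h1e were thus lowest at P69, whereas Hist1h1a was within the spot error of its P42 level there, with a change of 0.12. From P42 to P69 the direction of each of these genes differed between settings. Hist1h1c was at 2.38, 3.50, and 2.71, and was 0.34 higher at P69 than at P42. The testis-type Hist1h1t was at -0.97, -1.20, and -1.83, and did not share the peak at P55. The median change from P42 to P55 over all 6 H1 genes was 1.23, positive under each of the 6 settings.

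The H2A genes had the narrowest quartiles of the classes from P42 to P55 (1.12 and 1.34). Of the 13 members with a value, all were higher on the P55 array than on the P42 array. At least 2-fold higher were 11 of them, compared with 29.1% of all genes. Hist1h2af, Hist1h2ag, Hist1h2ah, Hist1h2ak, Hist1h2an, Hist2h2aa2, and Hist2h2ac had levels from 5.48 to 6.33 on the P42 array, from 6.73 to 7.43 on the P55 array, and from 5.05 to 5.73 on the P69 array. Their changes from P42 to P55 lay between 0.92 and 1.37, and from P42 to P69 between -0.62 and -0.39. These genes encode almost the same protein, and whether each probe reads 1 copy or several was not tested. Hist1h2ab stood apart, with levels of 1.04, 3.29, and 1.07, a 4.77-fold difference between P55 and P42. Hist1h2ae was detected only at P55, at -3.18, and was at least 2.40-fold higher there than at P42. Hist3h2a was at 1.04, 2.47, and 1.69, so that it was higher than at P42 on the P69 array too, by 0.65. Hist2h2ab was at -0.52, 0.71, and -1.19, and Hist2h2aa1 at 2.28, 3.05, and 2.02. The median change of the class from P42 to P55 was 1.21 and stayed positive under each setting, whereas the median from P42 to P69 (-0.44) was positive under 3 of the 6 settings.

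The H2B genes had the largest SD over genes of the classes (1.85 from P42 to P55) and held both the largest and the lowest changes of the family among genes detected on both arrays. From P42 to P55, 7 of 11 genes were at least 2-fold higher and 2 at least 2-fold lower, compared with 29.1% and 16.9% of all genes. Hist3h2ba had the largest increase, with levels of -3.30, -0.48, and -1.76 (7.04-fold between P55 and P42, and 2.91-fold between P69 and P42). Hist1h2bb was at 2.76, 5.28, and 2.94, a 5.72-fold difference between P55 and P42 that was gone at P69. Hist1h2bc was at -1.65, 0.69, and 0.63, and thus at almost the same level on both later arrays, 2.35 and 2.28 above the P42 array. Hist1h2bm (5.65, 6.96, and 5.35), Hist1h2ba (5.71, 6.99, and 5.45), and Hist2h2bb (-0.96, 0.07, and -0.78) were highest at P55, like the H2A genes. Hist1h2bg was at 1.24, 2.37, and 1.88. Other members went the opposite way. The member with the lowest value among those detected on all arrays was Hist1h2be, with levels of 0.27, -0.98, and -0.66, and Hist2h2be was at -0.59, -0.76, and -1.88. Hist1h2bq was at -2.66 on the P42 array, was not detected at P55 (at least 2.60-fold lower), and was at -4.49 on the P69 array. Hist1h2bp was detected only at P42, at -3.98, and was at least 2.05-fold lower at P69.

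**Figure D3:**
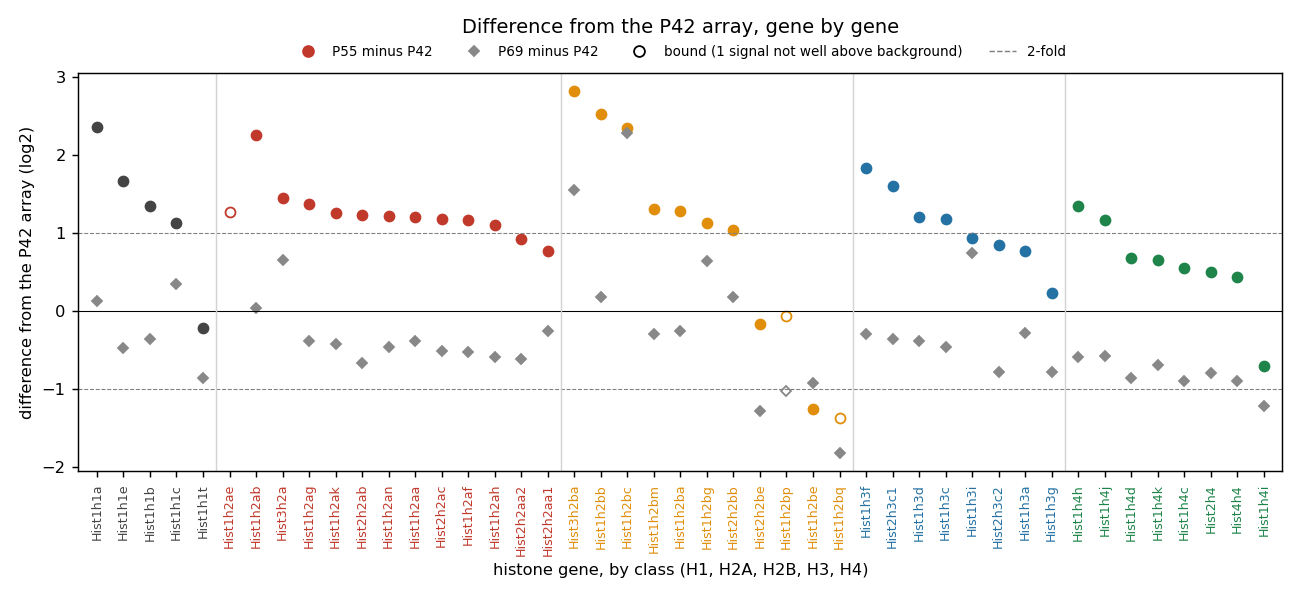
Difference from the P42 array (log2, y axis) of each of the 45 histone genes with a value (x axis, by class), for the P55 array (circles, colored by class) and the P69 array (gray diamonds). Open symbols are bounds and dashed lines mark 2-fold. The circles of the H3 genes lie between 0.23 and 1.82, and those of the H2B genes between -1.38 and 2.82.

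All 8 H3 genes were higher on the P55 array than on the P42 array, 4 of them at least 2-fold (29.1% of all genes). However, Hist1h3g differed by 0.23 and its direction depended on the scaling. Hist1h3f had the largest difference (3.54-fold), with levels of 2.01, 3.83, and 1.71. Hist2h3c1 was at 4.50, 6.10, and 4.14, and Hist1h3d at 5.94, 7.14, and 5.56. Hist1h3c was at 2.78, 3.96, and 2.32. Members with less than a 2-fold difference between P55 and P42 included Hist1h3a (-0.53, 0.23, and -0.81), Hist2h3c2 (-1.30, -0.47, and -2.09), and Hist1h3g (-1.41, -1.18, and -2.19). Hist1h3i, at -2.34, -1.41, and -1.60, was the 1 H3 gene that was higher at P69 than at P42, by 0.74. The H3 median was 1.06 from P42 to P55, positive under each setting, and -0.37 from P42 to P69, positive under 2 of 6 settings.

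The H4 genes had the smallest class median from P42 to P55 (0.60, positive under each setting). Of the 8 genes, 2 were at least 2-fold higher (25%, compared with 29.1% of all genes). They were Hist1h4h, with levels of 3.00, 4.35, and 2.40, and Hist1h4j, with 5.01, 6.17, and 4.43. Hist1h4c (6.27, 6.81, and 5.36), Hist1h4d (7.40, 8.08, and 6.53), Hist1h4k (7.12, 7.78, and 6.42), and Hist2h4 (7.51, 8.01, and 6.71) differed by 0.50 to 0.68 between P55 and P42. Hist4h4, the single member at its own locus, was at 5.73, 6.16, and 4.82. From P42 to P69 the H4 median was -0.83, the lowest of the classes, and it was positive under 1 of the 6 settings, without scaling. No spot was saturated, and no difference between classes was tested. The 1 H4 gene that was lower at P55 than at P42 was Hist1h4i, with 8.14, 7.43, and 6.92 on its brighter probe. Its other probe went the opposite way between P42 and P55, at 6.18, 6.85, and 5.01.

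Of the 4 genes with more than 1 probe, Hist1h4i was the 1 whose probes disagreed in direction. The probes of Hist1h2ak gave changes from P42 to P55 of 1.26 and 1.64, those of Hist1h4k 0.65 and 0.67, and those of Hist2h4 0.50 and 1.43. The probes of Hist1h4k thus differed by less than the spot error, and those of Hist2h4 by several times that error. The testis-type genes Hist1h2aa (3.52, 4.72, and 3.13) and Hist1h2ba were detected on all arrays and moved with the other members. Whether their probes also read the near-identical copies of the somatic genes was not tested. Without the 3 testis-type genes the median change from P42 to P55 was 1.14.

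Members with weaker signals varied more, although signal strength also depends on the probe and is no measure of abundance between genes. The 31 members with a mean level above the 75th percentile of the arrays were all detected on all 3 arrays, and 30 of them were higher at P55 than at P42, with a median change of 1.20 and an SD over genes of 0.61. The 16 members with a mean level at or below the 75th percentile had a median of 0.49 and an SD of 1.61, and 10 of them were higher. Of these 16 members, 11 were detected on all 3 arrays. In these unfiltered values, the members that went the opposite way were mostly among the weaker signals, with the exception of the brighter probe of Hist1h4i. Of those weaker members, however, Hist1h2ac was detected on no array, and Hist1h2bp and Hist1h2bq were not detected at P55. The direction of Hist1h1t and Hist2h2be differed between settings. Only Hist1h2be was detected on all 3 arrays and lower under every setting.

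Histone genes lie in clusters, in which genes of different classes alternate. The 35 members of the Hist1 cluster on chromosome 13 had a median change of 1.17 from P42 to P55. The 9 members of the Hist2 cluster on chromosome 3 had a median of 0.92. Both members on chromosome 11, Hist3h2a and Hist3h2ba, were at least 2-fold higher, compared with 29.1% of all genes. Within the Hist1 cluster, the members fell into 3 stretches separated by more than 200000 bases. The median change from P42 to P55 was 1.16 in the first stretch (9 genes, from Hist1h2bm to Hist1h2bq), 1.10 in the second (3 genes), and 1.18 in the third (23 genes, from Hist1h4h to Hist1h2aa). Genes with opposite changes were neighbors of genes with the common pattern. Hist1h2be, for example, lies between Hist1h4d and Hist1h1e, whose changes were 0.68 and 1.66.

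**Figure D4:**
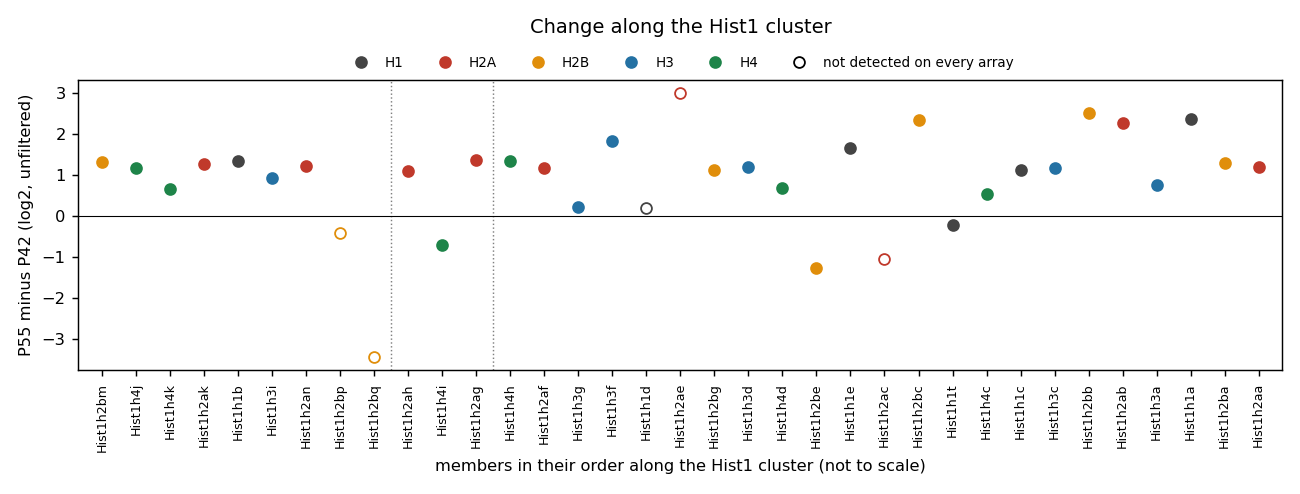
Unfiltered difference between the P55 and P42 arrays (log2, y axis) of the 35 members of the Hist1 cluster in their order along the chromosome (x axis, not to scale), colored by class. Dotted lines separate the 3 stretches, whose medians were 1.16, 1.10, and 1.18, and open circles mark genes not detected on every array.

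H2A and H2B genes often lie head to head and share the DNA between their starts. Such pairs were sought only among the 42 members with a promoter sequence, which gave 3 pairs. Hist1h2bc and Hist2h2be, for example, have no such sequence, and a partner was not sought for them. Hist1h2ba and Hist1h2aa, with 280 bases between their starts, changed by 1.28 and 1.20 from P42 to P55 and by -0.26 and -0.39 from P42 to P69. Hist1h2bg changed by 1.13 and its partner Hist1h2ae, 179 bases away, by at least 1.26 from P42 to P55. In the third pair, with 239 bases between the starts, Hist1h2an changed by 1.21 whereas Hist1h2bp was not detected at P55 and had a bound of -0.06. The values of the partners thus differed in this pair. However, Hist1h2bp was near the limit of detection at P42 (-3.98), and 1 probe gave each value.

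The changes of members with and without the promoter motifs overlapped. From P42 to P55 the median was 1.20 for the 13 members with the octamer and 1.12 for the 29 without it, and 1.20 for the 21 members with TATAAA and 1.10 for the 21 without it. The 35 members with CCAAT had a median of 1.17, compared with 0.84 for the 7 members without it, 5 of which were H4 genes. The range within each group was wider than these differences, for example from -1.26 to 2.99 among the members with the octamer.

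Genes that act on histone mRNAs did not share the pattern as a group. The list of 20 such genes had a median change of 0.06 from P42 to P55 (0.16 below the median of all genes, and from -0.16 to 0.26 relative to it over the 6 settings) and of 0.14 from P42 to P69. Of the 19 genes with a value, 3 were at least 2-fold higher at P55 (15.8%, compared with 29.1% of all genes). At least 2-fold lower was 1 gene (5.26%, compared with 16.9%). Slbp, which encodes the stem-loop binding protein, was at 2.56, 2.82, and 2.87. Npat was near the limit of detection, at -3.55 on the P42 array and -2.84 on the P69 array, and was not detected at P55. Casp8ap2, which encodes a protein that acts with NPAT, had the largest decrease at P55, with levels of -1.62, -3.75, and -1.72. The largest increase at P55 was that of Lsm11 (-2.51, -0.37, and -1.17), which encodes a component of the U7 particle that cuts histone pre-mRNAs. Lsm10 and Zfp473, whose products act in the same step, were the other genes at least 2-fold higher, by 1.46 and 1.70. At P69 the largest change was that of Cpsf2 (1.55) and the lowest that of Cstf2 (-0.79), which both encode proteins that take part in pre-mRNA cleavage. Ccne1 and Cdk2, the activators of NPAT, changed by -0.06 and 0.96 from P42 to P55, and E2f1 by -0.02.

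The median of the histone chaperones was higher than at P42 on each later array, under each of the 6 settings. Among 16 genes, 8 were at least 2-fold higher at P55 (29.1% of all genes) and 0 at least 2-fold lower (16.9%). The median change was 0.92 (0.66 at P69). Asf1b, which encodes a carrier of H3 and H4, had the largest change at P55 (2.37), and Nap1l1, which encodes a carrier of H2A and H2B, at P69 (2.55). The lowest changes were those of Atrx, -0.88 at P55 and -1.11 at P69.

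The median of the S phase genes was likewise higher on each later array under each setting. Of the 18 genes with a value, 14 were at least 2-fold higher at P55 (29.1% of all genes) and 8 at P69 (22.2%). The median changes were 1.52 and 1.01 over all 20 genes. Relative to the median of all genes, these medians were 1.31 and 1.08. Cdk1, which drives entry into mitosis, had the largest change in both comparisons, with levels of -1.86, 1.86, and 1.07. Gins2 had the lowest change at P55 (-0.32), and Mki67, a marker of cycling cells, the lowest at P69 (-0.57, and -0.16 at P55). Pcna, the replication clamp, was at 1.33, 3.07, and 3.49, and Rrm2, a subunit of the enzyme that makes deoxynucleotides, at -2.24, 0.40, and 0.06. On the P69 array the median of the S phase genes was thus above that of all genes, and the median of the histone genes was 0.39 below it. Whether the histone and S phase genes differ beyond the variation between samples could not be tested.

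A list of 11 histone variants outside the family had a median change of 0.96 from P42 to P55 and of 0.56 from P42 to P69. These medians were positive under each setting, and 5 of the 11 genes were at least 2-fold higher at P55, compared with 29.1% of all genes. H2afx, which encodes the variant marked at DNA breaks, had the largest change at P55, with levels of -1.70, 0.74, and -0.66. The lowest was that of H1fx (-0.08). Among genes detected at both P42 and P69, the highest change at P69 was that of H1f0, a linker histone of resting cells (1.45). The lowest was that of H2afj (levels of 6.19, 7.16, and 5.57). H1fx was at -3.60 on the P42 array and was not detected at P69, where it was at least 2.66-fold lower. H3f3a was at 4.18, 5.73, and 5.02, and H2afz at 5.69, 6.76, and 5.79. The plot of the gene lists sets these groups side by side.

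**Figure D5:**
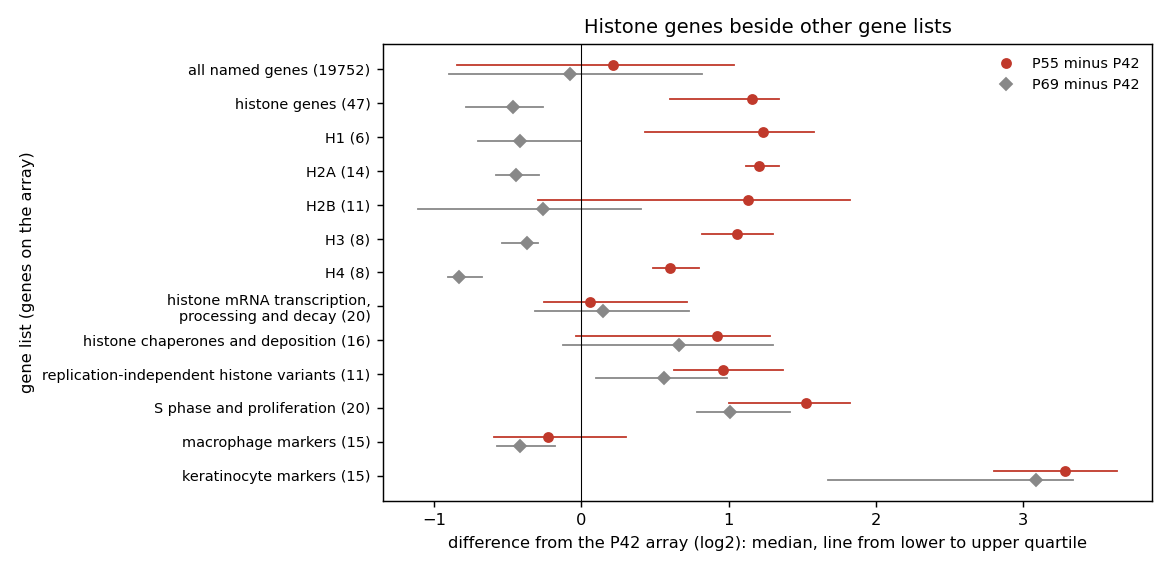
Median difference from the P42 array (log2, x axis) of the histone genes, their classes, and gene lists (y axis, number of genes in parentheses), for the P55 array (circles) and the P69 array (diamonds), with lines from the lower to the upper quartile. The histone genes are at 1.16 and -0.47, and the S phase genes at 1.52 and 1.01.

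Markers of other cell types also moved between the arrays. The red cell markers Hba-a1 (3.63, 4.90, and 3.05), Hbb-bt (0.22, 2.31, and 0.88), and Alas2 (-4.09, -1.16, and -3.02) were detected on each array and at least 2-fold higher at P55 than at P42. Over all genes this share was 29.1%. The summed signal of the 47 histone genes, in units of the 75th percentile, was 1646 on the P42 array, 2862 on the P55 array, and 1027 on the P69 array. The sum over all named genes was also highest at P55, at 110601, 117525, and 77985 in the same order. Sums of the red cell, keratinocyte, Langerhans and dendritic, T cell, melanocyte, and neutrophil markers were highest there too. Those of the macrophage, fibroblast, endothelial, and mast cell markers were highest at P42. All 15 keratinocyte markers were detected on each array, and 13 were at least 2-fold higher at P55 (29.1% of all genes) and 12 at P69 (22.2%). The 15 markers had median changes of 3.29 and 3.09 and summed signals of 279, 408, and 275. Trp63 alone made up 93.9%, 64.5%, and 59.4% of these sums, and the other 14 markers summed to 17.1, 145, and 112. Of 4 Langerhans and dendritic cell markers, 3 were at least 2-fold higher on each later array (29.1% and 22.2% of all genes). The 4 markers had summed signals of 20.6, 146, and 89.9, with Cd207 at 3.78, 6.76, and 5.90. The 6 T cell markers were detected on each array, with summed signals of 3.95, 11.7, and 7.77. The 15 macrophage markers had median changes of -0.23 and -0.42, with summed signals of 1105, 1063, and 675. The summed signals of the fibroblast markers (93.2, 48.0, and 50.2), endothelial markers (17.7, 8.34, and 15.9), and mast cell markers (3.46, 1.52, and 1.03) were lower at P55 than at P42. Melanocyte markers summed to 1.74, 5.64, and 5.59, and neutrophil markers to 0.31, 0.38, and 0.32. The part of these cell types in the histone signal was not tested.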

How the data were processed

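Per the labels, 0.05 to 1 ng of total RNA of sorted macrophages was amplified with a whole transcriptome kit and labeled with a Cy3 dye that couples preferentially to guanine. The authors scanned 1 slide with Feature Extraction (version 10.7.3.1) and deposited, for each of the 3 arrays, a spot intensity on a linear scale that the software had corrected for background, with arrays not normalized to each other. A further deposited table gives log2 values for 36409 probes, each centered on its median over the arrays. Its normalization is not given in the sources used here.

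From the deposited intensities, control spots and spots marked as outliers (162, 274, and 281) were left out, spots of a probe were averaged on the linear scale, log2 was taken, and the 75th percentile of each array (21.7, 16.5, and 32.3 times its lowest detected signal) was subtracted with Python 3.11.15, pandas 2.3.3, and numpy 2.4.6. Of 55681 probes, 26056 were named through their RefSeq transcript (GRCm38.p6, whereas the array design is on mm9), and 51 probes belonged to members. Where a gene had several probes, the one brightest on average was used. All members are named. Of the other lists, the genes with the largest and the lowest change among those measured on both arrays are named, and further genes were chosen after their values were seen. A marker of the lists is not reported here. The members and lists were chosen with earlier results of these data known.

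Each age is 1 array of pooled RNA, so that no test was made, and the steps were tested on simulated data. Depth of arrays is not counted, and their number limits the precision. The alternatives were other scalings (the 75th percentile of commonly detected probes only, the median, quantile normalization, and none), normexp background correction (limma 3.58.1 in R 4.3.3, offset 50), other filters, outlier spots kept, the median over probes, other fold thresholds, the log2 table, and the P55 and P69 arrays exchanged. "Settings" in the text are the main scaling, the other 4 scalings, and normexp. The methods of the study call a probe changed at 10-fold. The labels give day 42 for the early telogen mice, as used here, whereas the paper names a slightly later day.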

Additional observations from a re-analysis of the deposited data

How the results depend on the processing

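The difference between the P55 and P42 arrays held its direction under all scalings, filters, and normexp correction, and its size depended on the scaling. Percentages below are the shares of all genes past 2-fold in the same direction under the same setting. From P42 to P55 the histone median was 0.79 when scaled on probes detected on all arrays, with 9 members at least 2-fold higher (19.3%). It was 1.72 with the median (0 lower, 7.83%), 0.88 with quantile normalization (1 lower, 14.0%), and 1.42 without scaling (1 lower, 11.9%). With detection required on both arrays 1 member was lower (13.6%). From P42 to P69 the median was -0.67 when scaled on probes detected on all arrays, with 10 members at least 2-fold lower (25.7%). It was 0.054 with the median (5 higher, 38.6%, and 1 lower, 10.3%) and -0.057 with quantile normalization (2 lower, 13.3%). Without scaling it was 0.70 (10 higher, 60.3%, and 0 lower, 3.61%), and normexp left 1 member higher (15.7%). From P55 to P69 the median was -1.38 when scaled on probes detected on all arrays and -0.99 with quantile normalization (21 lower, 7.85%). Without scaling it was -0.65 (1 higher, 35.9%, and 8 lower, 1.81%), and 1 member was higher without a filter on dim probes (10.4%). At 10-fold the number of members was 0 in each comparison and direction, and at 1.5-fold 5 were higher and 17 lower from P42 to P69. Shares of all genes are not given for these thresholds.

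With P55 and P69 exchanged, or with the log2 table, the comparisons trade places. Percentages are again the shares of all genes. From P42 to P55 the median became -0.47 (-0.46 in the table). At least 2-fold higher were 2 members (22.2%, and 32.1% in the table), and 4 were lower (20.7%, and 35.9% in the table). From P42 to P69 the median became 1.16 (1.17), with 28 higher (29.1%, and 40.4% in the table). There were 2 lower (16.9%), and 3 in the table (34.3%). From P55 to P69 it became 1.55 (1.59), with 34 higher (11.3%) and 0 lower (7.85%). In the table these were 35 (19.1%) and 1 (16.2%). The change from P42 to P55 of Hist1h2ba became -0.26, of Hist1h2bm -0.29, of Hist1h3f -0.30, and of Hist1h1b and Hist2h3c1 -0.36. It became -0.38 for Hist1h3d, -0.39 for Hist1h2aa and Hist1h2ag, -0.42 for Hist1h2ak, -0.46 for Hist1h3c, -0.47 for Hist1h2an, and -0.48 for Hist1h1e. It became -0.51 for Hist2h2ac, -0.53 for Hist1h2af, -0.57 for Hist1h4j, -0.60 for Hist1h2ah and Hist1h4h, and -0.68 for Hist2h2ab.

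Of 966 single-gene values over all settings, 436 moved by less than the spot error and 494 by more, among them smaller changes that switched sign. The other 36 are the sign switches listed above, counted only for genes at least 2-fold changed in the main scaling. No paired analysis was possible because the result comes from no test and each age is 1 array. Naming genes by a gene name column was not run, since the scanner files hold no such column. Pooled RNA on 1 array per age leaves the variation between mice, sorts, and amplifications unmeasured, and signals near background limit what can be said of Hist1h1d, Hist1h2ac, Hist1h2ae, Hist1h2bp, and Hist1h2bq.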
